A study of Mus musculus with 6 samples.

Results

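The 10 genes described here encode secreted cytokines and chemokines: Ccl3, Ccl4, Ccl9, Osm, Il6, Lif, Il4, Il13, Tnf and Csf1. They were chosen by name, with their levels in all 6 libraries of the series known, so those levels are given as a description and carry no test. Each gene was found by its RefSeq accession as 1 entry, 10 of 23146 entries in all. RNA of EML cells, a stem cell factor-dependent mouse bone marrow progenitor line that carries a dominant-negative retinoic acid receptor, was sequenced from a KAI1 knockdown (n = 2), its knockdown control (n = 2), a KAI1 overexpression (n = 1) and its overexpression control (n = 1). KAI1 is a tetraspanin membrane protein encoded by Cd82. All groups were the same line, of strain BDF1, grown with serum and stem cell factor. The means of knockdown and overexpression are not given in the sources used here. Values are the authors' RPKM, that is reads scaled by transcript length and library depth, so levels can be set side by side between genes.

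CC chemokines such as CCL3, CCL4 and CCL9 draw leukocytes through receptors of the CCR family. Oncostatin M, IL-6 and LIF signal through complexes that hold the shared subunit gp130 and activate JAK kinases and STAT3. IL-4 and IL-13 share the receptor chain IL-4Rα and activate STAT6, TNF acts through its own receptors on NF-κB, and CSF-1 drives macrophage growth through CSF1R. Mast cells and basophils are known to make IL-4, IL-13 and TNF, and to release CCL3 and CCL4 when activated. EML cells can give mast cells, basophils, erythroid and myeloid cells in culture.

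The libraries differed in more than the KAI1 label. The estimated depth ranged from 9800000 to 25700000 reads. Cd82 stood at 7.65 and 6.91 RPKM in the KAI1 knockdown, against 43.9 and 13.8 RPKM in the knockdown control, and at 15.2 RPKM in the KAI1 overexpression, against 11.9 RPKM in the overexpression control. Knockdown control replicate 1 stood apart from the rest, with the KAI1 overexpression next. The summed level of 14 mast cell and basophil markers was 4896 and 4179.6 RPKM in the KAI1 knockdown, 43545 and 7755 RPKM in knockdown control replicates 1 and 2, 17475 RPKM in the KAI1 overexpression and 3915 RPKM in the overexpression control. All 14 of these markers reached 1 RPKM in some library. Most of the sum in knockdown control replicate 1 was Cma1 and Mcpt4, at 22312 and 9416 RPKM. Mcpt8 and Prss34 of the same list were highest in the KAI1 overexpression instead, at 3908 and 4.20 RPKM. In knockdown control replicate 1 they stood at 160 and 0.719 RPKM. Fcer1a, the IgE-binding chain of the IgE receptor, was at 0 in 2 of the libraries, the first of the KAI1 knockdown and the second of its control. The summed level of 9 erythroid markers ran the other way, at 2330.4 and 2679 RPKM in the KAI1 knockdown, 171 and 2813 RPKM in knockdown control replicates 1 and 2, 696 RPKM in the KAI1 overexpression and 2202 RPKM in the overexpression control. Outside knockdown control replicate 1 most of that sum was the globin genes Hbb-bt and Hbb-bs, while Gata1 and Epor of the same list were highest in knockdown control replicate 1, at 87.3 and 15.6 RPKM. In RNA of whole cultures, fewer cells of a type and less RNA per cell cannot be told apart, and the part of these markers in the results below was not tested. The labels call the cells basophils. Mast cell and basophil markers, erythroid markers such as Hbb-bt and some early myeloid markers were present. Of 8 early neutrophil and monocyte markers, 6 reached 1 RPKM in some library. Mpo among them ranged from 7.84 RPKM in knockdown control replicate 1 to 750 RPKM in KAI1 knockdown replicate 1. The list did not move as a whole. Ctsg stood at 1080 RPKM in knockdown control replicate 1, against 434 to 643 RPKM in the rest of the knockdown arm. It was highest in the KAI1 overexpression, at 1295 RPKM, against 1034 RPKM in the overexpression control. Ly6c2 was carried by the KAI1 overexpression alone, at 85.8 RPKM, and stood at 0.124 RPKM in knockdown control replicate 1. In contrast, 0 of 8 T, B and NK cell markers reached 1 RPKM in any library. Of 6 stromal and endothelial markers, 5 did. Pecam1 ranged from 25.1 to 52.1 RPKM, and Pdgfrb from 9.75 to 49.8 RPKM, highest in knockdown control replicate 1. Col1a1, Col1a2 and Cxcl12 were at or under 0.0648 RPKM in the knockdown arm and between 0.824 and 1.63 RPKM in the overexpression arm.

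The 10 genes formed 3 patterns. The KAI1 overexpression library alone carried Ccl3, Ccl4, Ccl9 and Osm. Knockdown control replicate 1 alone carried Lif, Csf1, Il4 and Il13, and no library alone carried Tnf or Il6. Here a library alone carries a gene when its RPKM + 1 is at least 2-fold above that of every other library. The gene need not be absent elsewhere: Il4 stood at 3.74 RPKM or more and Ccl9 at 5.34 RPKM or more in every library. Over all 10860 entries with at least 1 RPKM in some library, the KAI1 overexpression alone carried 0.801% and knockdown control replicate 1 alone carried 4.66%. The shares of the others were 0.138% and 0.249% for KAI1 knockdown replicates 1 and 2, 0.285% for knockdown control replicate 2 and 0.470% for the overexpression control, and these 4 carried 0 of the 10 genes. In all 6.60% of entries were carried by 1 library alone, and 8 of the 10 genes. Since the genes were picked with these levels known, nothing is read from that difference. Without knockdown control replicate 1, the KAI1 overexpression alone carried 6 of the 10, with Lif and Il13 added, against 2.31% of entries. Without the KAI1 overexpression, knockdown control replicate 1 alone carried the same 4 genes as before, against 7.16% of entries.

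**Figure D1:**
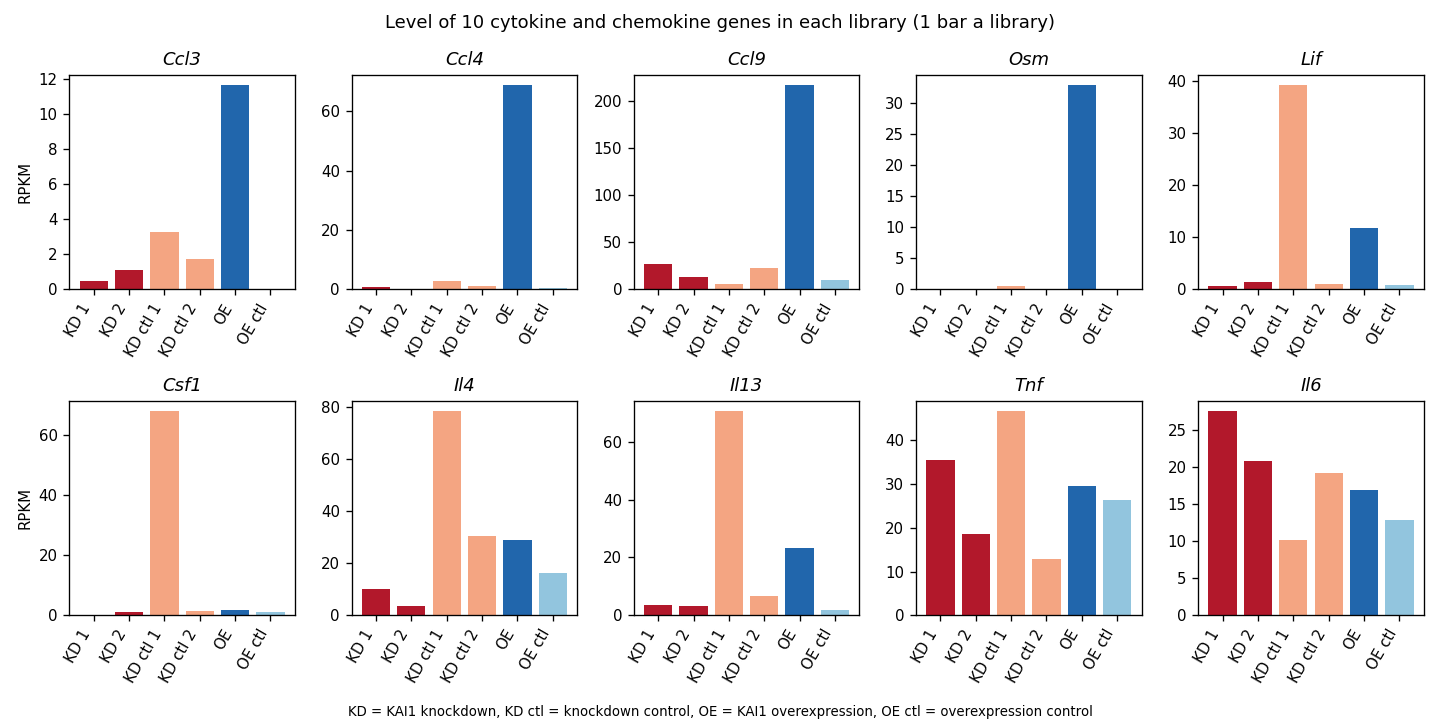
RPKM (vertical axis, linear, from 0, with its own scale in each panel) of each gene in each of the 6 libraries, 1 bar a library with no error bar. Ccl3, Ccl4, Ccl9 and Osm peak in the KAI1 overexpression, Lif, Csf1, Il4 and Il13 peak in knockdown control replicate 1, and Tnf and Il6 are spread over all libraries.

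**Figure D2:**
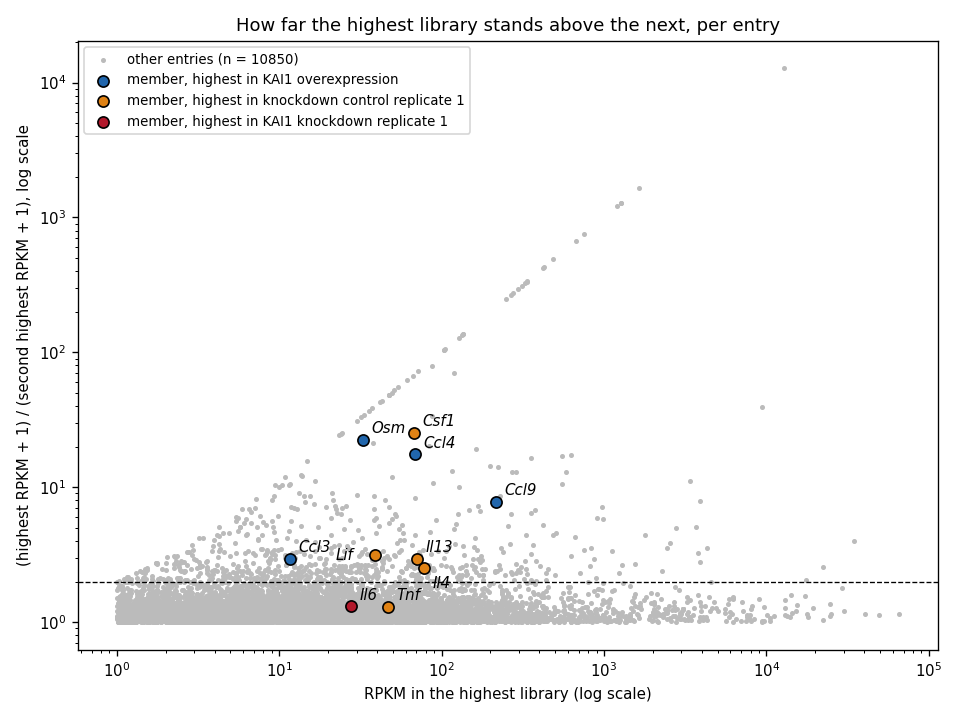
For each of 10860 entries, the RPKM in its highest library (horizontal, log scale) and the ratio of the highest to the second highest library after adding 1 RPKM (vertical, log scale), with the dashed line at 2-fold. Csf1, Osm and Ccl4 stand at 25.4-fold, 22.4-fold and 17.6-fold, while Tnf and Il6 lie below the line, at 1.31-fold each.

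The summed level of the 10 genes was 106 and 63.6 RPKM in the KAI1 knockdown, 325 and 97.5 RPKM in knockdown control replicates 1 and 2, 442 RPKM in the KAI1 overexpression and 69.2 RPKM in the overexpression control. Different genes led the sums of the highest libraries. In the KAI1 overexpression Ccl9 held 49.1% of the sum and Ccl4 held 15.6%, while in knockdown control replicate 1 Il4, Il13 and Csf1 held 24.1%, 21.7% and 20.9%. Tnf led with 33.5% in KAI1 knockdown replicate 1 and with 38.0% in the overexpression control. Il6 led with 32.7% in KAI1 knockdown replicate 2, and Il4 with 31.1% in knockdown control replicate 2.

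**Figure D3:**
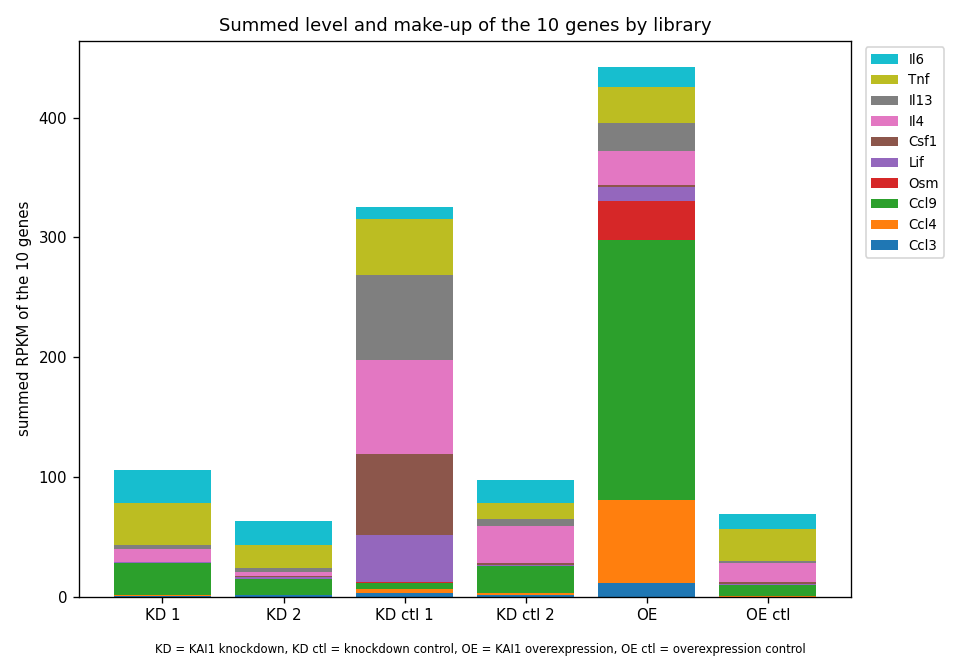
Summed RPKM of the 10 genes in each library (vertical axis, from 0), with 1 colour a gene. The KAI1 overexpression (442 RPKM) and knockdown control replicate 1 (325 RPKM) stand above the other 4 libraries (63.6 to 106 RPKM), the first mostly through Ccl9 and Ccl4 and the second through Il4, Il13, Csf1 and Lif.

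Of the CC chemokines, Ccl9 was the most abundant of all 10 genes in any library. CCL9 is a ligand of CCR1 that draws myeloid cells, and its gene lies on chromosome 11 (83386419 to 83392138 on mm9). Ccl9 stood at 27.1 and 13.2 RPKM in the KAI1 knockdown, 5.34 and 22.7 RPKM in knockdown control replicates 1 and 2, 217 RPKM in the KAI1 overexpression and 9.56 RPKM in the overexpression control. The KAI1 overexpression lay 20.6-fold above its control on the RPKM + 1 scale and 7.77-fold above the next library, KAI1 knockdown replicate 1. Knockdown control replicate 1, which was high in most of the other genes, was the lowest library for Ccl9. The knockdown libraries overlapped their controls, with a log2 difference of 0.70 (SE 0.75). That difference turned to -0.25 without knockdown control replicate 1 and was 1.65 without replicate 2.

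CCL3 and CCL4, also known as MIP-1α and MIP-1β, draw monocytes and lymphocytes, and CCL3 binds CCR1. Ccl4 lies on chromosome 11 (83476086 to 83478185 on mm9). Its level was 0.790 and 0.312 RPKM in the KAI1 knockdown, 2.98 and 1.23 RPKM in the knockdown control, 68.8 RPKM in the KAI1 overexpression and 0.548 RPKM in the overexpression control. Whole reads could be recovered for it, and these values rest on 5 and 3 reads, 28 and 6 reads, 665 reads and 7 reads in the same order of libraries. Both knockdown libraries thus lay below both controls, but the exact 95% Poisson interval of 3 reads runs from 0.62 to 8.77 and that of 6 reads from 2.20 to 13.06. Ccl3 lies on chromosome 11 (83461345 to 83462880 on mm9). Its level was 0.492 and 1.13 RPKM in the KAI1 knockdown, 3.31 and 1.75 RPKM in the knockdown control and 11.7 RPKM in the KAI1 overexpression, and it was listed at 0 in the overexpression control. Its reads were 4 and 14 in the KAI1 knockdown, 40 and 11 in the knockdown control, 145 in the KAI1 overexpression and 0 in the overexpression control. The log2 ratio of the KAI1 overexpression to its control was 3.66 for Ccl3 with 1 RPKM added and 6.88 with 0.1 RPKM, set by the control at 0. The overexpression library is the only one in which either gene passed 5 RPKM. The knockdown differences were -0.96 for Ccl4 (SE 0.42) and -0.95 for Ccl3 (SE 0.38) on the log2(RPKM + 1) scale. Without knockdown control replicate 1 they were -0.54 for Ccl4 and -0.63 for Ccl3. Over all entries tested, the 2 knockdown values were both under the 2 control values in 17.0% and both over them in 21.5%. Of the 9 genes that could be tested here, 5 lay below and 1 above.

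The stretches before the start sites of Ccl9 and Ccl3 are shown because both genes peaked in the same library. They are the 250 bases before the RefSeq start on build GRCm38.p6, read on the gene's strand. Capitals mark matches, on either strand, to the letters AGATAA and to TGATAA for GATA factors. They also mark TGGAAA for NFAT, TGANTCA for AP-1, TTCNNNGAA for STAT factors and the κB consensus. On the gene's strand alone they mark the TATA box TATAAA, where its first base lies between 45 and 20 bases before the start.
Ccl9, chr11:83578637-83578886, minus strand: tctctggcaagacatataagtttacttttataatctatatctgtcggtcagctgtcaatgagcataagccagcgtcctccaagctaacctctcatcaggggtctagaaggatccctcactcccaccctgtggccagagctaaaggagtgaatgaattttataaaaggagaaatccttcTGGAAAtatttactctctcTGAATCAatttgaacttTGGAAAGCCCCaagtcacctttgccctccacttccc
Ccl3, chr11:83649379-83649628, minus strand: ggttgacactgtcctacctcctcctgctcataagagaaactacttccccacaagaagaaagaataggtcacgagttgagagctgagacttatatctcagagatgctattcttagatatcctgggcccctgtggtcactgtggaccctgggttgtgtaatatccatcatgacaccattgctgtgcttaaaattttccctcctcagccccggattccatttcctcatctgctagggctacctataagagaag
The Ccl9 window held 2 NFAT matches, 1 AP-1 match and 1 κB match, and the second NFAT match overlaps the κB match. The Ccl3 window held 0 matches to these letters. Over 32841 windows of the same length in the table, 18.6% held the NFAT letters, 6.75% the AP-1 letters and 7.25% the κB consensus. A match is a description of these letters and not a bound site.

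Osm encodes oncostatin M and was nearly limited to the KAI1 overexpression. It stood at 32.8 RPKM in the KAI1 overexpression, against 0.0839 RPKM in the overexpression control, or 1184 reads against 4 reads. In the knockdown arm it was listed at 0 in both KAI1 knockdown libraries, while knockdown control replicate 1 had 0.513 RPKM (18 reads) and replicate 2 was listed at 0. The KAI1 overexpression lay 31.2-fold above its control and 22.4-fold above knockdown control replicate 1 on the RPKM + 1 scale. The size depends on the pseudocount: the log2 ratio of the KAI1 overexpression to its control was 4.96 with 1 RPKM added and 7.48 with 0.1 RPKM. With a mean under 1 RPKM in the knockdown arm, Osm was the 1 gene of the 10 that was not tested there. Osm (chromosome 11, 4136788 to 4141029 on mm9) and Lif (4157571 to 4172517) are neighbours 16.5 kb apart.

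Despite this position, the highest library differed between Osm and Lif. LIF keeps stem cells undifferentiated and binds LIFR with gp130. Lif stood at 0.622 and 1.52 RPKM in the KAI1 knockdown, 39.2 and 1.11 RPKM in knockdown control replicates 1 and 2, 11.8 RPKM in the KAI1 overexpression and 0.842 RPKM in the overexpression control. It was therefore above the remaining libraries in both, and 3.15-fold higher in knockdown control replicate 1 than in the KAI1 overexpression, whereas Osm stayed at or under 0.513 RPKM outside the KAI1 overexpression. Castor1, the next gene beyond Osm and a sensor of arginine in the mTORC1 pathway, reached 2.14 RPKM in the KAI1 overexpression and 2.93 RPKM in knockdown control replicate 1, and was at 0.209 RPKM or less in the other 4 libraries. Hormad2 on the far side of Lif stayed at or under 0.213 RPKM in all 6.

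Csf1 encodes the macrophage growth factor CSF-1 and was the gene most nearly restricted to knockdown control replicate 1. Csf1 lies on chromosome 3 (107543966 to 107563387 on mm9). Its level was 0.252 and 1.18 RPKM in the KAI1 knockdown, 67.9 and 1.58 RPKM in knockdown control replicates 1 and 2, 1.71 RPKM in the KAI1 overexpression and 0.985 RPKM in the overexpression control. The KAI1 overexpression, which shared the high level of Lif and Il13 with this control library, did not share that of Csf1. The knockdown difference was -3.01 on the log2 scale (SE 1.64) and rested on that library, since it was -0.64 without knockdown control replicate 1 and -5.38 without replicate 2. That of Lif was -2.19 (SE 1.47), and -0.06 without knockdown control replicate 1 and -4.31 without replicate 2. In Lif the groups overlapped, because KAI1 knockdown replicate 2 lay above knockdown control replicate 2.

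The windows before Lif and Csf1 are given because both genes peaked in knockdown control replicate 1, with capitals as above.
Lif, chr11:4257318-4257567, plus strand: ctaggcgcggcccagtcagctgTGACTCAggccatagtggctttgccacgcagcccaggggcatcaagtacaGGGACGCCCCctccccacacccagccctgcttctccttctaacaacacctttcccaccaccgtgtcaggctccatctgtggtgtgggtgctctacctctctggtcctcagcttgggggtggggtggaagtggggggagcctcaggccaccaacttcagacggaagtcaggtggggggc
Csf1, chr3:107760470-107760719, minus strand: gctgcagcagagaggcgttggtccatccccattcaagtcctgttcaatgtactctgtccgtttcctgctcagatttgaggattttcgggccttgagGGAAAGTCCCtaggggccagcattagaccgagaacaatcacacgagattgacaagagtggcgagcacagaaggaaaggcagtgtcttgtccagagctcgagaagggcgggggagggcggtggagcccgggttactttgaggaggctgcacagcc
The Lif window held 1 AP-1 and 1 κB match, and that of Csf1 held 1 κB match. Of the 8 genes with a window in the table, 4 held a κB match (Ccl9, Il6, Lif and Csf1), 1 of which is in the set of the KAI1 overexpression, 2 in the set of knockdown control replicate 1 and 1 in neither.

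Il4 and Il13 are the type 2 interleukins, which drive IgE class switching and allergic inflammation, and lie 12.7 kb apart on chromosome 11. Il4 spans 53425963 to 53432167 on mm9. Its level was 10.3 and 3.74 RPKM in the KAI1 knockdown, 78.5 and 30.3 RPKM in the knockdown control, 28.8 RPKM in the KAI1 overexpression and 16.2 RPKM in the overexpression control. For Il13 (53444825 to 53448204) the level was 3.53 and 3.22 RPKM in the KAI1 knockdown, 70.7 and 6.62 RPKM in the knockdown control, 23.2 RPKM in the KAI1 overexpression and 1.71 RPKM in the overexpression control. In both genes the knockdown libraries lay below both controls, and both peaked in knockdown control replicate 1. The genes differed in the second control library, where Il4 was still the second highest of 6. Il13 stood there at about 71 reads, against about 1460 reads in replicate 1. The knockdown difference of Il4 was -2.77 on the log2 scale (SE 0.66) and lay between -3.44 and -2.10 without any 1 library. With both knockdown values below both controls, leaving out 1 library could not change its sign. The knockdown difference of Il13 was -2.42 (SE 1.12) and was -0.80 without knockdown control replicate 1 and -4.04 without replicate 2. In the overexpression arm the KAI1 overexpression lay 8.94-fold above its control for Il13 and 1.73-fold above it for Il4, on the RPKM + 1 scale. The mast cell and basophil markers ran the same way, with 7 of 13 tested below both controls in the knockdown, against 17.0% of all entries. Limma called 0 of the 13, and 1, Hdc, had an unadjusted p under 0.05, against 336 of all 10113 entries. In the KAI1 overexpression 11 of 14 were higher by 2-fold or more, against 4.92% of all entries. Knockdown control replicate 1 alone carried 9 of the 14, against 4.66%. The KAI1 overexpression alone carried 2 of the 14, Mcpt8 and Prss34, against 0.801%.

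The windows before the interleukins are given because the genes are neighbours that share their highest library. Il4 has 2 starts in the table and the more upstream one is shown. The window before the other start held 0 matches to these letters.
Il4, chr11:53618666-53618915, minus strand: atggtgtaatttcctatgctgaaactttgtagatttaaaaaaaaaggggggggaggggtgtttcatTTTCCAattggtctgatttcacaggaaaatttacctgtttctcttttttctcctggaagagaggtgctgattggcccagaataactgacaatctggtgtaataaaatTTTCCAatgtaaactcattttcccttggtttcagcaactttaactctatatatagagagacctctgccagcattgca
Il13, chr11:53634703-53634952, minus strand: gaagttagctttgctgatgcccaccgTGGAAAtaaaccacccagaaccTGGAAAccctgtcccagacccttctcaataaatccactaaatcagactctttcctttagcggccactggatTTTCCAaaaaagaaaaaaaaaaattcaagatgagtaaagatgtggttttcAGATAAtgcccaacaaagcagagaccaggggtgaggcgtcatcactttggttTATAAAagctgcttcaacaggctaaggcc
The Il4 window held 2 NFAT matches, and that of Il13 held 3 NFAT matches, 1 GATA match and a TATA box from 29 to 24 bases before the start. GATA letters were found in 16.6% of all windows and a TATA box at that distance in 2.14%. The letters TATAAA stood anywhere on the gene's strand in 7.59% of windows. The Ccl9 window holds them 92 bases before the start, left in lower case.

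Genes around the interleukins did not follow them. Kif3a, a kinesin motor gene 8.2 kb from Il4, ranged from 7.84 to 11.5 RPKM over the 6 libraries, and Rad50, a DNA repair gene 14.8 kb from Il13 that holds control elements of this locus, ranged from 6.67 to 8.41 RPKM. Il5, the eosinophil growth factor on the far side of Rad50, was listed at 0 in all 6. In the chemokine cluster, Ccl6, which lies between Ccl9 and Ccl3, was highest in the KAI1 overexpression, at 7.32 RPKM against 0.203 RPKM in the overexpression control. It stood at 0.351 and 0.540 RPKM in the KAI1 knockdown and 2.44 and 0.303 RPKM in the knockdown control. Ccl5, a chemokine gene 42.4 kb on the other side of Ccl9, ran opposite in the overexpression arm, at 0.144 RPKM in the KAI1 overexpression and 4.58 RPKM in the overexpression control, with 3.52 and 0.580 RPKM in the KAI1 knockdown and 0.445 and 8.56 RPKM in the knockdown control. Wfdc17 and Wfdc18 beyond Ccl4 were listed at 0 in the KAI1 overexpression and stayed at or under 1.41 RPKM elsewhere. In all, 7 of the 10 genes lie on chromosome 11, in these 3 clusters.

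TNF, an inflammatory cytokine made as a membrane protein and shed by the protease ADAM17, was present throughout. Tnf lies on chromosome 17 (35336336 to 35338941 on mm9). Its level was 35.6 and 18.5 RPKM in the KAI1 knockdown, 46.8 and 13.0 RPKM in the knockdown control, 29.5 RPKM in the KAI1 overexpression and 26.3 RPKM in the overexpression control. The knockdown libraries lay between the 2 controls, with a log2 difference of 0.05 (SE 0.71) that was 0.94 without knockdown control replicate 1 and -0.84 without replicate 2. Its neighbours Lta and Ltb, which encode lymphotoxins, stayed at or under 1.94 RPKM.

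Il6 showed the smallest ratio of highest to lowest library of the 10 genes, with Tnf next. IL-6 is an acute-phase cytokine, and its gene lies on chromosome 5 (30339701 to 30346508 on mm9). Il6 was at 27.6 and 20.8 RPKM in the KAI1 knockdown, 10.1 and 19.3 RPKM in the knockdown control, 17.0 RPKM in the KAI1 overexpression and 12.9 RPKM in the overexpression control. It was the 1 gene of the 10 in which both knockdown libraries lay above both controls, by 0.73 on the log2 scale (SE 0.38), and by 0.30 without knockdown control replicate 1 and 1.17 without replicate 2. Knockdown control replicate 1, the highest library for 5 of the 10 genes, was the lowest for Il6. In the order of levels the neighbours KAI1 knockdown replicate 2 and knockdown control replicate 2, at 20.8 and 19.3 RPKM, lay closer together than the libraries of either group did.

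Limma called 3 of the 10113 entries tested in the knockdown, or 0.0297%, all of them small RNA entries. It called 0.00989% higher (Mir3060) and 0.0198% lower (Snord53 and Snord61). It called 0 of the 9 members tested, of which 1 (Il4) had an unadjusted p under 0.05, against 336 of all 10113 entries. In the overexpression arm, with 1 library a side and no test, 489 of 9936 entries or 4.92% were higher by 2-fold or more and 5.21% lower by as much. Of the 10 genes 6 were higher by that rule and 0 lower, with a median log2 difference of 2.98, against 0.006 over all entries. These contrasts share libraries with the levels by which the genes were picked, so the counts are not evidence about them. Replicates are not stated to be separate cultures, so the SE and the limma values measure only the spread between these libraries, which may be technical.

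The receptors, signalling genes and regulators of these cytokines and the other secreted factors were taken from 8 lists, drawn up with earlier results of these data known. Of 97 entries of these lists that were tested, limma called 0 in the knockdown, with 0 at an unadjusted p under 0.05, against 336 of all 10113 entries. The median log2 difference was -0.68 over 6 tested receptors, against 0.028 over all entries. Il2rg, the common γ chain used by the IL-4 receptor, was the most abundant receptor, at 101 and 84.0 RPKM in the KAI1 knockdown, 155 and 116 RPKM in the knockdown control, 143 RPKM in the KAI1 overexpression and 92.6 RPKM in the overexpression control. Il4ra, the IL-4 and IL-13 receptor chain, stood at 6.17 and 9.17 RPKM in the KAI1 knockdown, 73.9 and 7.68 RPKM in the knockdown control, 39.3 RPKM in the KAI1 overexpression and 4.05 RPKM in the overexpression control. Like Lif and Il13, Il4ra was thus high in knockdown control replicate 1 and in the KAI1 overexpression. Il13ra1 and Il13ra2, the other IL-13 receptors, were listed at 0 in all 6 libraries.

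Of the receptor genes of the IL-6 family, Il6st and Il6ra were lowest in the KAI1 overexpression. Il6ra was carried by knockdown control replicate 1 alone, as Lif was. Il6st, which encodes gp130, stood at 2.76 and 2.98 RPKM in the KAI1 knockdown, 3.71 and 2.58 RPKM in the knockdown control, 0.225 RPKM in the KAI1 overexpression and 1.56 RPKM in the overexpression control. Il6ra, the IL-6 binding chain, stood at 1.36 and 2.85 RPKM in the KAI1 knockdown, 12 and 2.80 RPKM in the knockdown control, 0.467 RPKM in the KAI1 overexpression and 2.99 RPKM in the overexpression control. So gp130 was lowest in the library in which its ligand gene Osm was highest. Osmr and Lifr, the specific chains for oncostatin M and LIF, stayed at or under 0.0156 and 0.902 RPKM. Lifr was not low in the KAI1 overexpression, at 0.696 RPKM, against 0.495 RPKM in the overexpression control.

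Ccr1, the receptor gene for CCL3 and CCL9, was highest in the same library as Ccl3 and Ccl9. It stood at 2.10 RPKM in the KAI1 overexpression, against 0.449 RPKM in the overexpression control, and at or under 0.879 RPKM in the knockdown arm. Tnfrsf1a, the main TNF receptor, stood at 6.84 and 4.21 RPKM in the KAI1 knockdown, 0 and 4.22 RPKM in the knockdown control, 0.194 RPKM in the KAI1 overexpression and 5.07 RPKM in the overexpression control. Tnfrsf1b stayed at or under 1.53 RPKM. Csf1r, the receptor of CSF-1, reached 2.73 RPKM in knockdown control replicate 1 and stayed at or under 0.413 RPKM elsewhere. Of the other macrophage markers, Adgre1 was likewise highest there at 2.92 RPKM, while C1qa and Mrc1 were listed at 0 in all 6 libraries. Lyz2, which also marks other myeloid cells, ran the other way, at 14.7 and 10.4 RPKM in the KAI1 knockdown, 0.499 and 6.31 RPKM in the knockdown control, 0.158 RPKM in the KAI1 overexpression and 4.66 RPKM in the overexpression control. It made up most of the highest sum of the 7 macrophage markers found, which ranged from 0.960 to 15.2 RPKM.

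Of 19 genes of JAK-STAT signalling compared in the overexpression arm, 4 were at least 2-fold higher in the KAI1 overexpression than in its control, against 4.92% of all entries. Another 4 were lower by as much, against 5.21%. Cish and Socs2, feedback inhibitors that STAT5 induces, were higher: Cish stood at 31.9 RPKM in the KAI1 overexpression, against 1.33 RPKM in the overexpression control, and Socs2 at 11.8 RPKM, against 0.177 RPKM. Socs1, an inhibitor of JAK kinases, stood at 16.9 RPKM, against 2.95 RPKM, and the kinase gene Pim1 at 34.5 RPKM, against 5.10 RPKM. Those lower were Stat3, at 15.2 RPKM in the KAI1 overexpression, against 53.2 RPKM in the overexpression control, and Socs3, the feedback inhibitor of gp130 signalling, at 0.862 RPKM, against 6.48 RPKM. Bcl3 stood at 1.13 RPKM, against 15.5 RPKM, and the entry of Jak3, which also carries Insl3, at 98.3 RPKM, against 241 RPKM. Of the 4 higher genes, Cish, Socs1 and Pim1 were also higher in knockdown control replicate 1 than in replicate 2, at 16.3 against 2.72 RPKM, 12.3 against 0.368 RPKM and 72.3 against 10.6 RPKM, while Socs2 reached 1.25 RPKM there. In the knockdown 5 of the 18 tested lay above both controls and 2 below, against 21.5% and 17.0% of all entries, with a median log2 difference of 0.004.

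**Figure D4:**
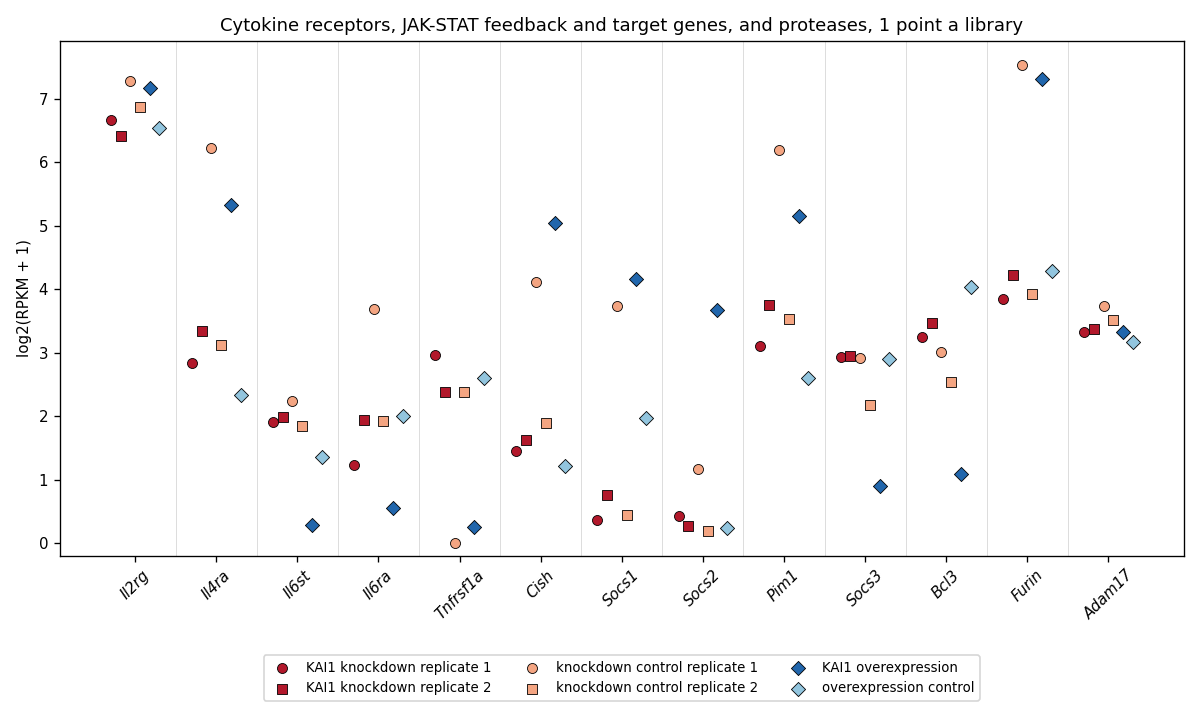
log2(RPKM + 1) (vertical axis) of receptors, JAK-STAT feedback and target genes and processing proteases in the 6 libraries, 1 point a library with no error bar. Il4ra, Cish, Socs1, Pim1 and Furin are high in both knockdown control replicate 1 and the KAI1 overexpression, Socs2 in the KAI1 overexpression, and Il6st, Socs3 and Bcl3 are lowest in the KAI1 overexpression.

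Of the proteases that release or mature cytokines, Furin shared the split of Il4ra. It stood at 13.4 and 17.8 RPKM in the KAI1 knockdown, 185 and 14.3 RPKM in knockdown control replicates 1 and 2, 159 RPKM in the KAI1 overexpression and 18.5 RPKM in the overexpression control. Adam17, the TNF sheddase, ranged from 8.0 to 12.4 RPKM.

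Most other secreted factors were low or listed at 0. Of 60 entries of other cytokines, 21 were listed at 0 in all 6 libraries and 13 reached 5 RPKM somewhere, and of 30 other chemokines 9 were listed at 0 throughout and 5 reached 5 RPKM. Mif, a factor that acts on macrophages, was the most abundant, at 2503 and 3785 RPKM in the KAI1 knockdown, 1632 and 2963 RPKM in the knockdown control, 3368 RPKM in the KAI1 overexpression and 4866 RPKM in the overexpression control. The platelet chemokine genes Pf4 and Ppbp were the most abundant chemokine genes outside the 10. Pf4 was at 463 and 947 RPKM in the KAI1 knockdown, 1541 and 729 RPKM in the knockdown control, 67.9 RPKM in the KAI1 overexpression and 479 RPKM in the overexpression control. Ppbp reached 550.4 RPKM in knockdown control replicate 1, while the other 5 libraries lay between 20.6 and 31.1 RPKM, the pattern of Csf1. Tgfb1, at 38.1 to 97.8 RPKM, Vegfb, at 44.5 to 75.8 RPKM, and Ebi3, at 14.5 to 33.5 RPKM, were present in every library. Flt3l and Il16 were carried by knockdown control replicate 1 alone, at 82.6 and 35.2 RPKM, with 26.0 to 35.1 and 9.44 to 15.3 RPKM in the other libraries, as was the entry shared by Tnfsf12 and Tnfsf13, at 56.5 RPKM. Those left that reached 5 RPKM were Grn, Tnfsf14, Vegfa, Vegfc, Il15, the entry shared by Cntf and Zfp91, Ccl5, Ccl6 and Ccl17.

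The genes with profiles most like those of the 10 were found by the root mean square difference between centred log2(RPKM + 1) profiles over the 6 libraries, among 8170 other entries with at least 5 RPKM in some library. Il13 was nearest to Cma1, a mast cell chymase gene, at 0.127 log2 units, and Lif to Fcer1a, at 0.193, followed by Pirb, at 0.209. Csf1 was nearest to the mast cell receptor gene Mrgprb8, at 0.324, then to Ppbp, at 0.344, and to the mast cell protease gene Mcpt9, at 0.356. Ccl3 was nearest to the chemokine receptor gene Ccr2, at 0.276, and to the granzyme gene Gzmb, at 0.328. Osm and Ccl4 were nearest to 3 small RNA entries, Mir146b, Mir324 and Scarna8, which were listed at 0 in every library but the KAI1 overexpression, and their read numbers were not recovered. Ccl9 was nearest to Mgst2, a glutathione transferase gene, at 0.687, a wide distance. Tnf was nearest to Izumo4, at 0.175, Il6 to Sp110, at 0.146, and Il4 to the small RNA entry Mir680-2, at 0.305. Among the 10 themselves, the closest pairs were Ccl4 with Osm, at 0.351, and Lif with Il13, at 0.453. The neighbours Il4 and Il13 stood 0.984 apart and Ccl3 and Ccl4 1.02 apart. With 6 libraries, these distances are descriptions only.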

How the data were processed

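The 6 libraries of EML cell RNA comprised 2 each for the KAI1 knockdown and its control and 1 each for the KAI1 overexpression and its control, grouped by the treatment label. The authors deposited RPKM per RefSeq entry and locus, per the file headers. Tools credited in the submitters' processing notes were Cufflinks, Bowtie and TopHat2 2.0.9, with mm9 as the build and no settings given. Of 23170 entries in each file, 24 repeat an accession and locus and were left out. RefSeq named 22840 entries and GENCODE 125, and 181 have no symbol. Coordinates of genes are those of the files (mm9), counted from 1. Promoter windows come from RefSeq on GRCm38.p6, where 8 of the 10 genes matched, and are not set against mm9 positions.

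Depth is not stated. It was estimated from the value of 1 read at low RPKM, over transcripts whose length GENCODE gives, in a procedure tested on simulated reads. Whole reads were recovered for Ccl3, Ccl4, Osm and Il13, as the whole numbers that best match all low values near the annotated length, within 0.009 of a read; intervals cover counting error only. The knockdown was compared with its control on log2-transformed values (pseudocount 1 RPKM) by limma 3.58.1 (R 4.3.3), letting the variance follow the level, two-sided, with Benjamini-Hochberg adjustment at 0.05. This covered 10113 entries whose mean over the 4 libraries reached 1 RPKM. The fit was tested on simulated data. Fold changes on this scale understate changes of low genes. The overexpression arm was described by a 2-fold size rule over 9936 entries. Genes were named by rule: all 10 members, receptors with at least 1 RPKM somewhere, other cytokines and chemokines with at least 5 RPKM, neighbours, up to 4 of the most abundant of each other list, and up to 3 nearest profiles. The JAK-STAT genes beyond those 4, Furin, the marker genes and receptors under 1 RPKM that are named were added after their values were seen, and 1 listed receptor gene is not reported here. The members and lists were chosen with earlier results of these data known.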

Additional observations from a re-analysis of the deposited data

How the results depend on the processing

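The library that alone carried each of the 10 genes stayed the same with a pseudocount of 0.1 RPKM, with at least 5 RPKM required in some library and after quantile normalization. Of 63 recomputed knockdown differences of single genes, 61 moved by no more than the spread between replicates. The other 2 were those of Ccl3 and Ccl4 at a pseudocount of 0.1 RPKM, -1.56 and -1.74. Leaving out 1 of 2 libraries cannot move a difference by more than that spread, and the replicate number as a block leaves it unchanged. Only the pseudocount and the quantile normalization could therefore count as a move, and the 61 are no measure of stability. That of Csf1 went from -3.01 to -0.64 without knockdown control replicate 1 and still counted as unmoved. In the overexpression arm, which has no replicate spread, 17 of 20 recomputed log2 ratios stayed within 1.5 times their value, and 3 did not, all at a pseudocount of 0.1 RPKM: Ccl3 (6.88), Osm (7.48) and Csf1 (0.74). Without 1 library in turn, the differences of Ccl9 and Tnf ranged from -0.25 to 1.65 and from -0.84 to 0.94 on the log2 scale, so their direction depended on the library left out. Limma calls in the knockdown, 1 higher and 2 lower, were few under most settings: 4 lower at a pseudocount of 0.1 RPKM, 0 higher and 0 lower with no filter, and 1 lower after quantile normalization. Without 1 library in turn they ranged from 0 to 409 higher and from 0 to 636 lower, both highest without knockdown control replicate 2. There the single control library is assumed to vary like the knockdown libraries. Entries with both knockdown libraries above both controls, 2174 in all, ranged from 2951 to 4474 without 1 library, and those below, 1718 in all, from 2601 to 4180, since fewer values must then be ordered. At a pseudocount of 0.1 RPKM, the entries carried alone numbered 25 for KAI1 knockdown replicate 1, 47 for replicate 2, 48 for knockdown control replicate 2 and 132 for the KAI1 overexpression, and 57 for the KAI1 overexpression with at least 5 RPKM required. The labels do not say whether same-numbered libraries were handled together. Their deviations correlated at -0.0754, which cannot show that they share no batch. With the replicate number as a block limma called 1 higher and 3 lower. Groups of 2 libraries, single overexpression libraries and values under 1 RPKM that rest on few reads limit the precision. Leaving out knockdown control replicate 1 and leaving out the KAI1 overexpression when counting genes carried alone were chosen after seeing the data.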

Other observations

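Of 19 genes of NF-κB and TNF signalling compared in the overexpression arm, 0 were at least 2-fold apart in either direction, against 4.92% higher and 5.21% lower over all entries, so nothing is read from that count. TNF activates this pathway, which controls many cytokine genes. In the knockdown limma called 0 of 19 tested, with 0 at an unadjusted p under 0.05, against 336 of all 10113 entries. Rela, the main activating NF-κB subunit, ranged from 18.8 to 26.9 RPKM over the 6 libraries, and Tradd, the TNF receptor adaptor, from 27.8 to 37.4 RPKM.

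Of 15 transcription factor genes compared in the overexpression arm, 3 were higher by 2-fold or more and 3 lower by as much, against 4.92% and 5.21% of all entries. Egr1, an early response transcription factor, was at 174 and 96.6 RPKM in the KAI1 knockdown, 267 and 86.5 RPKM in the knockdown control, 43.0 RPKM in the KAI1 overexpression and 110 RPKM in the overexpression control. Junb, an AP-1 subunit, was at 189 and 115 RPKM in the KAI1 knockdown, 255 and 106 RPKM in the knockdown control, 74.2 RPKM in the KAI1 overexpression and 167 RPKM in the overexpression control. Jund, another AP-1 subunit, was at 105 and 66.6 RPKM in the KAI1 knockdown, 222 and 94.3 RPKM in the knockdown control, 178 RPKM in the KAI1 overexpression and 92.3 RPKM in the overexpression control. Egr1 and Junb were thus lower in the KAI1 overexpression than in its control, and are among the 3 lower by 2-fold or more. Jund was higher by 1.92-fold on the RPKM + 1 scale, so it is not among the 3 higher. Zfp36 encodes tristetraprolin, which destabilises mRNAs with AU-rich elements, a class that includes Tnf. Its level was 51.9 and 20.0 RPKM in the KAI1 knockdown, 69.3 and 19.7 RPKM in the knockdown control, 6.81 RPKM in the KAI1 overexpression and 40.0 RPKM in the overexpression control. Tnf, at 29.5 RPKM in the KAI1 overexpression and 26.3 RPKM in the overexpression control, was close to level in that pair. A link between Zfp36 and Tnf was not tested. Zfp36l2, the most abundant of the decay genes, stood at 77.2 RPKM in the KAI1 overexpression and 117 RPKM in the overexpression control. Gata2, a regulator of mast cell and basophil genes, was at 74.3 and 128 RPKM in the KAI1 knockdown, 235 and 91.0 RPKM in the knockdown control, 161 RPKM in the KAI1 overexpression and 112 RPKM in the overexpression control. Limma called 0 of 17 transcription factors and 0 of 11 decay genes in the knockdown. In either list 0 had an unadjusted p under 0.05, against 336 of all 10113 entries.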
